A study of Rattus norvegicus with 6 samples.

Results

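The transcripts described here are those of the core autophagy machinery and of its cargo receptors. They were taken by symbol, as every gene named Atg followed by a digit and a fixed set of other autophagy genes, and 44 of the 31011 genes in the count files met that rule. The RNA was from cultured rat cells labelled NRVM, described as myocardial and taken from the heart muscle of embryos. An siRNA against eIF3m had been given in 3 libraries (replicates 1 to 3) and a control siRNA in the other 3 (replicates 1 to 3). Both groups were grown in DMEM with fetal bovine serum, and the labels give no genotype, siRNA dose or time for either. eIF3m belongs to the multi-subunit initiation factor eIF3, which helps load mRNA onto ribosomes, and the comparison asks how transcript levels differ when it is knocked down. Whether the replicates were separate cultures is not stated in the labels, and the p-values therefore refer to the spread among these libraries alone, which may be technical.

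Autophagy encloses cytoplasm in a double membrane, the autophagosome, and delivers it to the lysosome for digestion. The ULK kinase complex starts the process, a class III phosphatidylinositol 3-kinase complex marks the membrane with the lipid PI3P, and conjugation enzymes attach LC3 and GABARAP proteins to the growing membrane. Cargo receptors such as p62 bind marked cargo on one side and LC3 or GABARAP proteins on the other. Heart muscle relies on the pathway to clear damaged mitochondria and protein aggregates.

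Of the 44 genes, 43 had enough counts to be tested, and with eIF3m siRNA 0 rose and 16 fell (edgeR quasi-likelihood test, Benjamini-Hochberg adjusted p under 0.05). Among all 12724 genes tested, 17.4% rose and 21.2% fell, so 38.7% passed in either direction, against 37.2% of the autophagy genes. The share called was thus near the background, and the direction was not split as it was among all genes. At an unadjusted p under 0.05, edgeR placed 0 of them higher and 18 lower. DESeq2 called 0 risen and 14 fallen, and limma-voom called 0 and 15. The genes that fell belonged to the LC3 and GABARAP proteins (4 of 5), the cargo receptors (3 of 4 tested), the membrane supply genes (5 of 8), the initiation kinase complex (2 of 5), the conjugation enzymes (1 of 11) and Tecpr1, while none of 6 phosphatidylinositol 3-kinase genes and none of 3 mitochondrial receptors passed. In these bulk libraries, fewer cells of a type and less RNA per cell cannot be told apart.

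Direction depended in part on scaling. The median log2 fold change was -0.16 over the 43 genes and 0.01 over all genes with TMM factors, the scaling used here unless another is named. With no scaling factors the median of all genes moved to 0.16. The autophagy genes then counted 7 risen and 11 fallen, and with upper-quartile scaling 1 and 14. Of all genes called, 71.2% rose with no scaling factors and 58.6% with upper-quartile scaling, against 45.1% with TMM. Relative to the median of all genes, that of the autophagy genes lay at -0.17 under each of the 3 scalings. A change of scaling shifts all genes by nearly the same amount, so this difference could hardly move and is no check on direction.

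Total counts ran from 7437285 to 8603602 in the control libraries and were 10061575, 2156186 and 7901395 in eIF3m replicates 1, 2 and 3. Eif3m itself was measured at 137, 136 and 141 CPM (the count relative to the scaled library total) in the controls and at 91.5, 83.9 and 87.3 CPM with eIF3m siRNA, here and below in the order of the replicate numbers. The eIF3m libraries all lay below the control libraries, with a log2 fold change of -0.64 ± 0.05 SE (edgeR, adjusted p = 1.41e-07). One library stood apart. In eIF3m replicate 1 the summed level of 10 red cell markers was 6253 CPM, against 33.9 to 79.8 CPM in controls and 235 and 52.9 CPM in eIF3m replicates 2 and 3. None of the 10 red cell, 10 endothelial and 8 leukocyte markers found in the files was at or under 3 counts in that library. Its summed endothelial and leukocyte markers were 82.8 and 62.0 CPM, against at most 39.5 and 31.7 CPM in any other library. In those other libraries most of the sums was Egfl7 (19.9 to 36.0 CPM) and Cd14 (18.1 to 29.0 CPM), which both fell with eIF3m siRNA (-0.56 and -0.49). Pecam1 and Ptprc were at 11.0 and 7.14 CPM in eIF3m replicate 1 and at most 0.246 and 0.142 CPM in any other. Without eIF3m replicate 1, 0 of the autophagy genes rose and 15 fell, of which 13 were also called with all libraries. Atg2a, Map1lc3a and Rb1cc1 were then lost, and Atg7 and Gabarapl1 entered. The labelled cell type was checked against 14 cardiomyocyte markers, of which 4 had enough counts to be tested. Myh7 and Myl2 lay at or under 3 counts in every library and Myh6 between 0 and 1.05 CPM, whereas Tnnt2 stood at 366 ± 8.85 CPM in controls and fell to 152 ± 8.27 CPM (SD, n = 3 per group). The summed level of the 14 markers, most of it Tnnt2, was 432 to 444 CPM in controls and 175 to 201 CPM with eIF3m siRNA. Ttn, Pln and Nkx2-5 lay at 17.6 to 28.7 CPM in controls, and Actn2, Ryr2, Tnni3, Tbx5 and Myl7 at most at 1.32 CPM in any library. With eIF3m siRNA, Pln fell to a mean of 3.34 CPM (log2 fold change -3.13) and Ttn to 9.13 CPM (-1.49), while Nkx2-5 did not pass (0.03). The sum of 9 skeletal muscle markers was 58.7 to 63.6 and 32.3 to 38.4 CPM. Of these, Myod1 was at 13.2 to 17.8 and 13.2 to 19.4 CPM, and Myog at 16.8 to 22.1 and 4.76 to 6.18 CPM. Myf5 lay at or under 3 counts in every library. Myh3 was at 14.6 to 19.7 CPM in controls. Most of the 14 cardiomyocyte markers were thus too scarce to be tested in cells labelled myocardial, while Myod1, Myog and Myh3 were measured. Tnnt2, Ttn, Pln and Nkx2-5 were measured as well, so these levels go against the label in part. Which cells were sequenced was not tested. Of 8 fibroblast markers, summed to 14954 to 15144 and 16042 to 16652 CPM, 6 were tested and did not move together. The collagen genes Col1a1 (0.14) and Col3a1 (0.27), which make up most of that sum, rose with Dcn and Lum, and Thy1 (-0.55) and Ddr2 (-0.42) fell. Dcn was at 55.3, 2.21 and 1.80 CPM in eIF3m replicates 1, 2 and 3 and at most 1.28 CPM in controls. Lum was at 10.3, 3.97 and 2.88 CPM and at most 0.861 CPM, so both were highest in the library with the red cell markers. The part of these shifts in the autophagy transcripts was not tested.

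Promoter sequences from RefSeq (assembly GRCr8, which differs from the rn6 build of the counts) show where the members differ at their start sites. A single window of 300 bases, from 250 before to 50 after the start, was matched by symbol for 36 of the 44 genes. Rb1cc1, Becn1, Atg9a, Map1lc3a, Bnip3l and Fundc1 had no entry, and Uvrag and Wdr45 had 2. Each window was searched on both strands for CACGTG, the E-box that is its own reverse complement, for TCACGTG, which contains that E-box and is the form bound by the lysosomal gene regulators TFEB and TFE3, and for GTAAACA, a site of FoxO factors. The E-box was found in 4 of the 36 windows (11.1%), those of Atg3, Atg5, Atg14 and Bnip3, against 6.42% of all 33469 windows and 9.76% of those of tested genes. TCACGTG was found in 2 (5.56%), those of Atg3 and Atg14, against 3.20% and 5.88%. GTAAACA was found in 0, against 3.78% and 2.25%. All 4 genes with an E-box belonged to the members that did not pass the test (4 of 23 windows), and 0 of 12 windows of genes that fell held one. With so few windows, and a share of 9.76% among tested genes, this split may be chance, and it was not tested. The next lines show the stretches before the start of Atg3, Atg5 and Bnip3, with the E-box in capitals, and for contrast the 100 bases before the start of Sqstm1, Gabarap and Gabarapl2, which fell and hold none of the 3 motifs.
Atg3 (chr11:69159281-69159344, minus strand): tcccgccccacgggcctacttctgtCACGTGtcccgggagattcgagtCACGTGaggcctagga
Atg5 (chr20:49380791-49380834, plus strand): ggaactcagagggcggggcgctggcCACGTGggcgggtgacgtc
Bnip3 (chr1:203155031-203155086, minus strand): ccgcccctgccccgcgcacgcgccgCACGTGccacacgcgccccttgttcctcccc
Sqstm1 (chr10:35037751-35037850, minus strand): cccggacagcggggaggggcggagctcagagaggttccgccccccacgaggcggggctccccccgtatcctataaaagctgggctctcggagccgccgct
Gabarap (chr10:55213365-55213464, plus strand): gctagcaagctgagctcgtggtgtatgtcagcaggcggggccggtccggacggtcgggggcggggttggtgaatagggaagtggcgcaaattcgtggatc
Gabarapl2 (chr19:56819726-56819825, plus strand): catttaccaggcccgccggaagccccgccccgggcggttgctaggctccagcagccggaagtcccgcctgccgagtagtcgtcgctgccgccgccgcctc
A match describes letters in a window and is no measure of binding, and the absence of a match says only that these letters are not in it.

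**Figure D1:**
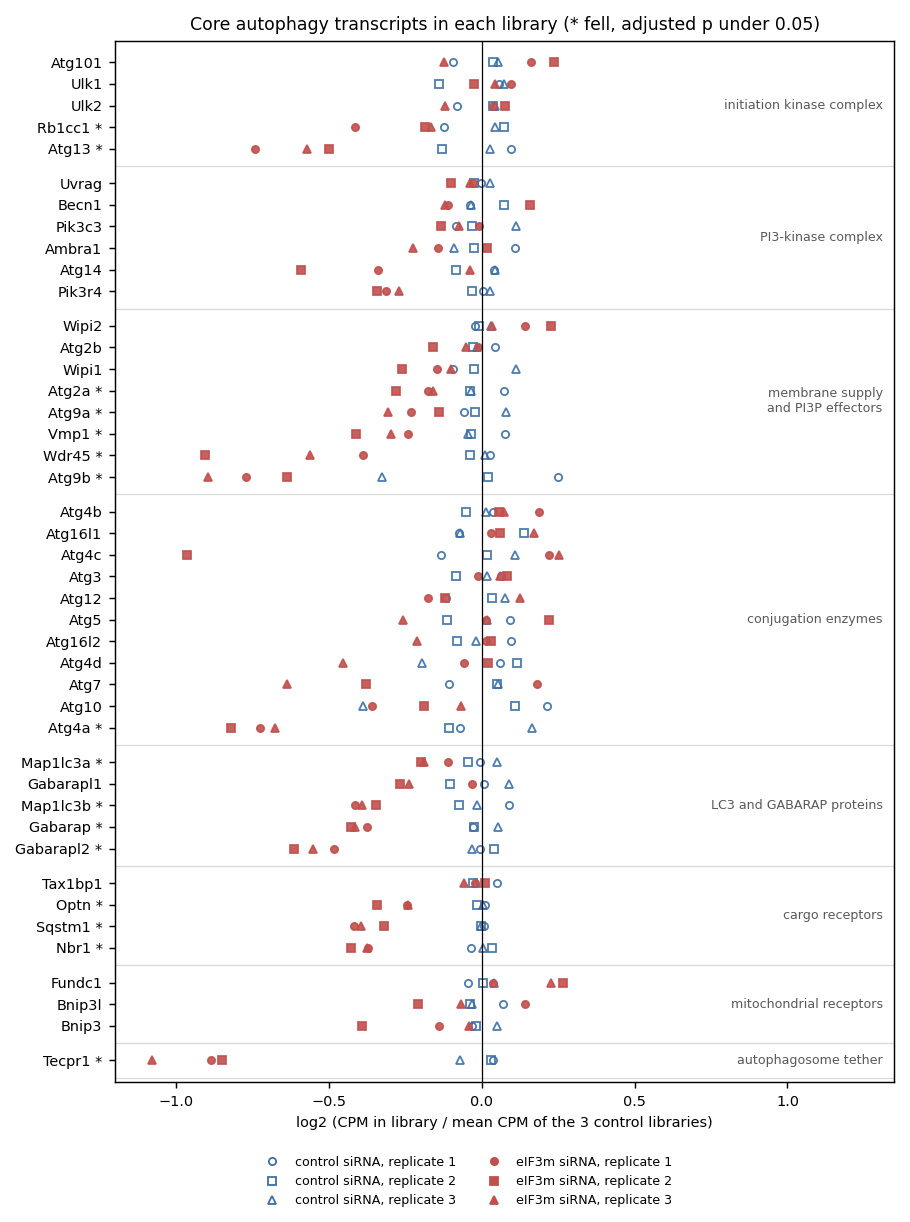
Each row is 1 of 43 tested autophagy genes, grouped by role, and each symbol 1 library, placed by the log2 ratio of its CPM to the mean of the 3 control libraries (open symbols, control siRNA; filled symbols, eIF3m siRNA). The filled symbols lie left of the open ones for all 16 genes marked as fallen, and the groups mix in most rows of the conjugation enzymes.

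The initiation kinase complex senses nutrient state through mTORC1 and AMPK. Atg13, the adaptor that ties the kinase to its scaffold, was at 18.7, 16.0 and 17.8 CPM in the controls and at 10.5, 12.4 and 11.8 CPM with eIF3m siRNA. No library of one group reached the other, and Atg13 fell (log2 fold change -0.63 ± 0.14 SE, edgeR adjusted p = 0.00186), a call lost with libraries thinned to the smallest (-0.54). Rb1cc1, the scaffold also known as FIP200, was at 72.9, 83.5 and 81.9 CPM in controls and at 59.6, 69.8 and 70.8 CPM with eIF3m siRNA. The groups did not overlap, yet the highest eIF3m library lay close to the lowest control. It fell by 0.27 ± 0.07 SE on the log2 scale (edgeR adjusted p = 0.00875), and without eIF3m replicate 1 the change of -0.17 did not pass (adjusted p = 0.0988, in a range over alternatives of 4.23e-05 to 0.187). The call of Rb1cc1 was lost as well with no scaling factors and with thinned libraries. The kinase Ulk1 was at 51.9, 45.3 and 52.5 CPM in controls and at 53.4, 49.0 and 51.5 CPM with eIF3m siRNA, and the groups overlapped. Its log2 fold change was 0.06, with a 95% interval of -0.10 to 0.21. The related kinase Ulk2 (-0.02 ± 0.11 SE) and the Atg13 partner Atg101 (0.07 ± 0.08) also had overlapping groups. Ulk1 took 69.2% ± 2.37 of the counts of the 2 kinases in controls and 69.8% ± 1.99 with eIF3m siRNA (SD, n = 3).

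None of the genes of the phosphatidylinositol 3-kinase complex passed by edgeR, DESeq2 or limma-voom, and 1, Pik3r4, had an unadjusted edgeR p under 0.05. Becn1, the Beclin 1 scaffold, was at 94.0, 102 and 94.2 CPM in the controls and at 89.4, 108 and 88.9 CPM with eIF3m siRNA. The highest and the lowest libraries were both of the eIF3m group, and the log2 fold change of -0.05 had a 95% interval of -0.20 to 0.09. Pik3r4, the regulatory kinase of the complex, stood at 17.4 ± 0.364 and 14.02 ± 0.354 CPM (SD, n = 3), and its groups did not overlap (-0.30 ± 0.12 SE, edgeR adjusted p = 0.0624). Estimates for the lipid kinase Pik3c3 (-0.06), the subunits Atg14 (-0.25) and Uvrag (-0.05) and the Beclin 1 regulator Ambra1 (-0.14) were below 0 and did not pass. With no scaling factors, Becn1, Pik3c3, Uvrag and Ambra1 were above 0.

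Genes that supply membrane or read PI3P gave the largest number of calls, 5 of 8. Vmp1, a scramblase of the endoplasmic reticulum, was at 172, 159.5 and 158 CPM in the controls and at 138, 123 and 133 CPM with eIF3m siRNA. Every eIF3m library was below every control (-0.30 ± 0.06 SE, edgeR adjusted p = 5.41e-04). Wdr45, the PI3P-binding protein WIPI4, was at 32.8, 31.4 and 32.5 CPM in controls and at 24.6, 17.2 and 21.8 CPM with eIF3m siRNA. The shallow eIF3m replicate 2 was the lowest of these, and the fall was 0.53 ± 0.11 SE on the log2 scale (edgeR adjusted p = 0.00111). Atg9a, the scramblase of the vesicles that seed the autophagosome, was at 101, 104 and 111 CPM in controls and at 89.6, 95.4 and 85.1 CPM with eIF3m siRNA (-0.24 ± 0.06 SE, adjusted p = 0.00439). The groups of Atg9a did not overlap, and the call was lost with no scaling factors (-0.09). Its paralogue Atg9b was scarce in every library, at 10.6, 9.07 and 7.13 CPM in controls and 5.23, 5.74 and 4.80 CPM with eIF3m siRNA. It fell by 0.79 ± 0.21 SE on the log2 scale (edgeR adjusted p = 0.00853), and without control replicate 1 it no longer passed (-0.65, adjusted p = 0.0515, in a range over alternatives of 0.00355 to 0.515). With thinned libraries it was at -0.31 and did not pass. The lipid transfer protein Atg2a fell by 0.18 ± 0.06 SE (edgeR adjusted p = 0.0281) but passed in only 8 of 16 alternatives. Its paralogue Atg2b was at -0.05 ± 0.06 SE and did not pass. The PI3P effectors Wipi1 (-0.15 ± 0.08) and Wipi2 (0.12 ± 0.07) had groups that did not overlap and lay on opposite sides of 0. The groups almost met, at 46.1 (control) and 45.9 CPM (eIF3m) for Wipi1 and 48.21 and 48.22 CPM for Wipi2. Neither passed, but Wipi2 was called risen after upper-quartile scaling (0.18) or with no scaling factors (0.26).

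Among 11 conjugation enzymes 1 fell. Atg4a, a cysteine protease that trims LC3 and GABARAP proteins before they are attached, was at 20.8, 20.3 and 24.5 CPM in the controls and at 13.2, 12.4 and 13.7 CPM with eIF3m siRNA. The 3 eIF3m libraries lay close together and well below the controls (-0.72 ± 0.12 SE, edgeR adjusted p = 2.81e-04). With thinned libraries the value was -0.40 and did not pass (edgeR adjusted p = 0.168, the highest over 16 alternatives). Of the counts of the 4 Atg4 proteases, Atg4a took 26.3% ± 2.35 in controls and 17.6% ± 1.04 with eIF3m siRNA, and Atg4b 39.8% ± 1.05 and 47.8% ± 0.866 (SD, n = 3). Neither pair of shares overlapped, and the exact two-sided permutation test gave p = 0.1 for each, the smallest that 3 libraries against 3 allow. Over the 15 shares computed for the families here, the adjusted p of both was 0.188 (exact permutation tests, Benjamini-Hochberg). Atg4b (0.12 ± 0.08 SE), Atg4c (0.08 ± 0.21) and Atg4d (-0.18 ± 0.14) did not pass as levels. Atg4c had 11 counts in eIF3m replicate 2.

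Atg5, which joins with Atg12 to form the ligase for LC3, was at 24.6, 21.3 and 23.4 CPM in the controls and at 23.3, 26.9 and 19.3 CPM with eIF3m siRNA. The eIF3m libraries spread to both sides of the controls (-0.04, 95% interval -0.30 to 0.21). Atg7, the activating enzyme, was at 13.9, 15.5 and 15.5 CPM in controls and at 16.9, 11.5 and 9.60 CPM with eIF3m siRNA. Its groups overlapped through eIF3m replicate 1, the highest of the 6 libraries. The log2 fold change was -0.19 ± 0.18 SE with all libraries (edgeR adjusted p = 0.455), and without eIF3m replicate 1 it was -0.56 and passed (edgeR adjusted p = 0.0187, in a range over alternatives of 0.0187 to 0.890). The part of the red cell, endothelial and leukocyte RNA of that library in its Atg7 level was not tested. The LC3-conjugating enzyme Atg3 (0.04 ± 0.06), Atg12 (-0.04 ± 0.09), the E2-like enzyme Atg10 (-0.20 ± 0.28) and the ligase scaffolds Atg16l1 (0.09 ± 0.07) and Atg16l2 (-0.06 ± 0.13) had overlapping groups. Atg10 had the lowest mean level of the 43 genes, with 8 counts in eIF3m replicate 2.

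LC3 and GABARAP proteins are the ubiquitin-like tags of the autophagosome membrane, and 4 of the 5 genes fell. Gabarap was at 261, 262 and 276 CPM in the controls and at 205, 198 and 199 CPM with eIF3m siRNA. Both groups were tight and apart from each other (-0.40 ± 0.05 SE, edgeR adjusted p = 7.21e-06). Gabarapl2, also known as GATE-16, was at 61.9, 63.9 and 60.8 CPM in controls and at 44.4, 40.6 and 42.3 CPM with eIF3m siRNA, the largest change of the 5 (-0.53 ± 0.06 SE, adjusted p = 9.20e-06). Map1lc3b, the LC3 form most used to mark autophagosomes, was at 235, 209.6 and 218 CPM in controls and at 166, 174 and 168 CPM with eIF3m siRNA. It fell by 0.39 ± 0.05 SE on the log2 scale (edgeR adjusted p = 3.44e-05), with every eIF3m library below every control. Map1lc3a was at 66.2, 64.4 and 68.7 CPM in controls and at 61.5, 57.9 and 58.3 CPM with eIF3m siRNA. Its groups did not overlap, but the change was small (-0.16 ± 0.06 SE, edgeR adjusted p = 0.0474). That call was held in only 2 of 16 alternatives and did not survive the removal of any single library (-0.13 without eIF3m replicate 3, -0.19 without eIF3m replicate 1). Gabarapl1 was at 122, 113 and 129 CPM in controls and at 119, 101 and 103 CPM with eIF3m siRNA, and eIF3m replicate 1 lay inside the control range. It did not pass (-0.16 ± 0.07 SE, edgeR adjusted p = 0.0809), and without eIF3m replicate 1 it did (-0.24, edgeR adjusted p = 0.00548, in a range over alternatives of 0.00548 to 0.902).

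Within the summed counts of the 5 genes, the share of Map1lc3a was 9.01% ± 0.125 in controls and 10.2% ± 0.0986 with eIF3m siRNA, and that of Gabarapl1 16.5% ± 0.649 and 18.6% ± 1.22 (SD, n = 3). The share of Gabarapl2 was 8.44% ± 0.463 and 7.33% ± 0.188, and that of Gabarap 36.1% ± 0.988 and 34.7% ± 0.246. For these 4 genes the groups did not overlap (exact permutation p = 0.1 each, the smallest possible), and the shares of Map1lc3b, 29.9% ± 1.33 and 29.2% ± 1.30, overlapped (exact permutation p = 0.6). Counts are not corrected for transcript length, so shares compare groups and not genes. RefSeq lists pseudogenes for Gabarap (3), Gabarapl2 (3), Map1lc3b (2), Atg4b (1), Sqstm1 (1), Vmp1 (1), Bnip3 (8) and Bnip3l (1), and how reads shared with such copies were counted is not given in the sources used here. Levels of these genes are uncertain to that extent.

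**Figure D2:**
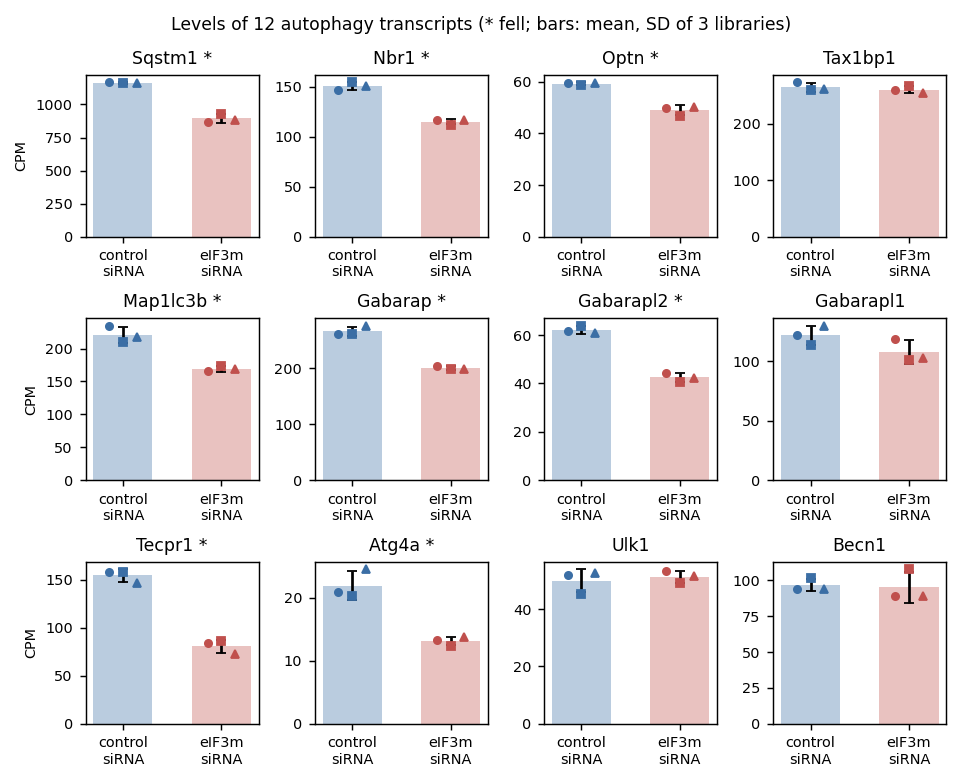
Bars give the mean CPM of 3 libraries with the SD, and symbols the single libraries (circle, square and triangle for replicates 1, 2 and 3), for 12 genes in control siRNA (blue) and eIF3m siRNA (red). The groups are apart for the 8 genes marked as fallen, among them Sqstm1 at 1163 against 895 CPM, and overlap for Tax1bp1, Gabarapl1, Ulk1 and Becn1.

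Of the cargo receptors tested, 3 of 4 fell. Sqstm1, which encodes p62, the receptor for ubiquitin-marked aggregates that is itself degraded by autophagy, was at 1168, 1161 and 1159.9 CPM in the controls and at 871, 931 and 884 CPM with eIF3m siRNA. The controls lay close together, and the eIF3m libraries were all lower (-0.38 ± 0.03 SE, or -23.0%, edgeR adjusted p = 3.58e-08). Nbr1, a partner of p62 with a similar domain order, was at 147, 155 and 151 CPM in controls and at 117, 112 and 116 CPM with eIF3m siRNA. It fell by 0.38 ± 0.05 SE on the log2 scale (edgeR adjusted p = 1.57e-05), a size near that of Sqstm1. Optn, optineurin, a receptor for mitochondria and bacteria, was at 59.7, 58.7 and 59.5 CPM in controls and at 50.1, 46.8 and 50.1 CPM with eIF3m siRNA (-0.26 ± 0.06 SE, edgeR adjusted p = 0.00328). The groups of Optn were apart, and its call was lost with no scaling factors (-0.11) and with thinned libraries (-0.11). Tax1bp1, a receptor that also binds ubiquitin, was at 274, 259 and 261 CPM in controls and at 260.5, 267 and 254 CPM with eIF3m siRNA. Its groups overlapped, and the log2 fold change of -0.02 had a 95% interval of -0.12 to 0.08, which excludes a change as large as those of Sqstm1 and Nbr1. Whether it differed from them was not tested. Calcoco1 had 1 count in control replicate 2, 1 in eIF3m replicate 3 and 0 in the other libraries, and it was not tested.

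The receptors that sit on mitochondria did not pass by edgeR, DESeq2 or limma-voom, and none had an unadjusted edgeR p under 0.05. Bnip3, a hypoxia-inducible receptor of the outer mitochondrial membrane, was at 73.7, 74.5 and 78.1 CPM in the controls and at 68.5, 57.4 and 73.3 CPM with eIF3m siRNA. The eIF3m libraries were all lower, by margins that ranged from slight in replicate 3 to wide in replicate 2 (-0.14 ± 0.07 SE, edgeR adjusted p = 0.118). Without eIF3m replicate 3 it passed (-0.20, adjusted p = 0.0484), and with no scaling factors it stood at 0.01. Bnip3l, also known as NIX, which clears mitochondria from maturing red cells, was at 83.7, 77.5 and 77.8 CPM in controls and at 87.8, 68.9 and 75.9 CPM with eIF3m siRNA. The library with the red cell markers, eIF3m replicate 1, was the highest of the 6, and the part of those cells in its level was not tested. The log2 fold change of Bnip3l was 0.00 ± 0.07 SE with all libraries and -0.10 without that library, and neither passed. Fundc1, another receptor of the outer membrane, was at 15.8 ± 0.475 and 17.9 ± 1.497 CPM (0.16 ± 0.12 SE, adjusted p = 0.339), the highest estimate of the 43 genes.

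Tecpr1, a protein that tethers autophagosomes to lysosomes and binds PI3P, had the lowest log2 fold change of the 43 genes. It was at 158, 158 and 147 CPM in the controls and at 83.6, 85.7 and 73.1 CPM with eIF3m siRNA. The highest eIF3m library was far below the lowest control (-0.95 ± 0.06 SE, or -48.1%, edgeR adjusted p = 1.47e-08). Over 16 alternatives its log2 fold change ran from -1.01 to -0.80 and passed each time.

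**Figure D3:**
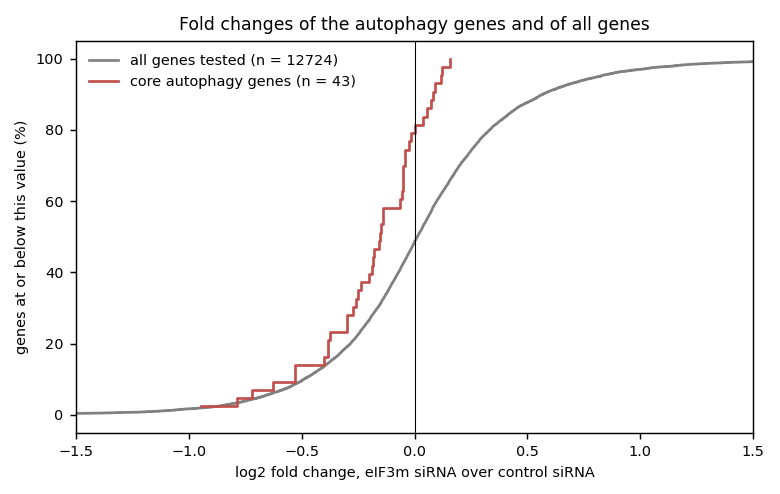
Cumulative curves give the percentage of genes (vertical axis) at or below each log2 fold change of eIF3m over control siRNA (horizontal axis, shown from -1.5 to 1.5) for 43 autophagy genes (red) and all 12724 genes tested (grey). The red curve ends at 0.16, the value of Fundc1, while the grey curve continues to the right.

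As a group, 34 of the 43 genes had a log2 fold change below 0 and 9 above, against 6181 below and 6543 above among all genes. The values ran from -0.95 (Tecpr1) to 0.16 (Fundc1), and the median absolute log2 fold change was 0.16, against 0.24 among all genes. Groups did not overlap for 22 of the 43 (51.2%), against 48.5% of all genes. These were the 16 that fell and Pik3r4, Uvrag, Wipi1, Wipi2, Atg4b and Bnip3. The median level of the genes, as a log2 difference from the control mean, was 0.01, -0.02 and 0.02 in the controls and -0.14, -0.20 and -0.16 with eIF3m siRNA. With TMM factors the fall was thus seen in each eIF3m library, that with the red cell markers included. With no scaling factors the median log2 fold change of the genes was -0.0094. Vmp1, Wdr45, Gabarap, Gabarapl2, Map1lc3b, Nbr1, Sqstm1 and Tecpr1 fell in each of 16 alternatives, whereas the calls of the other 8 genes were lost in at least 1.

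**Figure D4:**
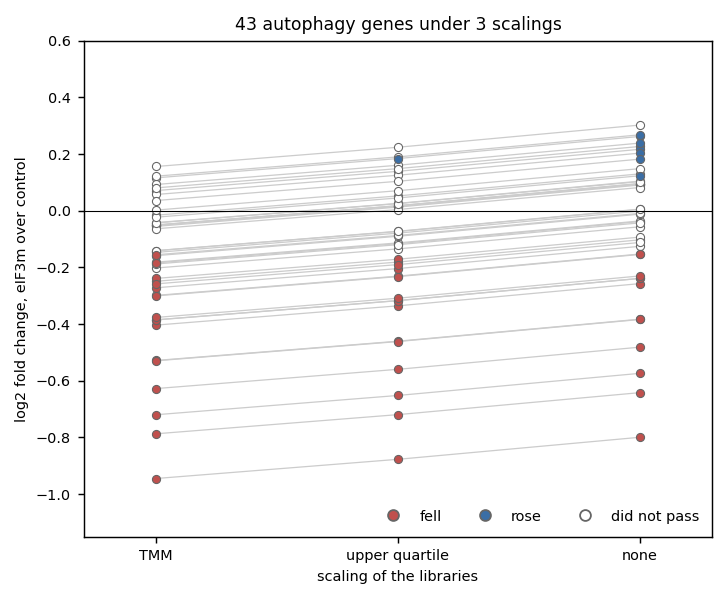
Each line follows 1 of 43 autophagy genes through its log2 fold change (vertical axis) with TMM, upper-quartile or no scaling factors, and the fill of each point gives the call at adjusted p under 0.05 (red fell, blue rose, white did not pass). The lines run in parallel and upward, and blue points appear for 1 gene with upper-quartile scaling and for 7 with no scaling factors.

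Other genes of the pathway were taken from 5 lists outside the 44. Of 71 tested, 6 rose and 26 fell (8.45% and 36.6%), against 17.4% and 21.2% of all genes. With no scaling factors the pathway genes counted 20 risen and 15 fallen. All genes then counted 4163 risen and 1680 fallen, so the whole table moved with them. Genes for fusion with the lysosome counted 1 risen and 10 fallen of 16, with a median log2 fold change of -0.24. Lamp1 and Lamp2, the main glycoproteins of the lysosomal membrane, fell by 0.96 ± 0.03 and 0.71 ± 0.04 SE on the log2 scale, and the late endosomal GTPase Rab7a by 0.43 ± 0.05 (edgeR adjusted p from 1.00e-12 to 4.15e-06). The gene that rose was Stx17, the SNARE of the closed autophagosome (0.42 ± 0.12 SE, adjusted p = 0.0152), which was at 19.7, 15.6 and 17.3 CPM in the controls and at 22.3, 20.3 and 25.9 CPM with eIF3m siRNA. Its call was lost in 4 of 16 alternatives, those without control replicate 2, control replicate 3 or eIF3m replicate 3 and that with thinned libraries. Other selective autophagy receptors counted 0 risen and 6 fallen of 14 by edgeR, DESeq2 and limma-voom alike, and 1 had a higher level at an unadjusted edgeR p under 0.05. Ccpg1 and Tex264, receptors of the endoplasmic reticulum, fell by 1.04 ± 0.06 and 0.64 ± 0.06 SE, and the shuttle factor Ubqln2 by 0.70 ± 0.06. The fall of Ccpg1, from 108 ± 6.44 to 51.9 ± 1.34 CPM (SD, n = 3), was of a size near that of Tecpr1.

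Upstream regulators did not share one direction. Of 18 genes of the nutrient-sensing kinases, 3 rose and 5 fell (16.7% and 27.8%), near the 17.4% and 21.2% of all genes. Those that rose were Sesn3 (0.99 ± 0.07 SE), Ddit4 (0.43 ± 0.10) and Sesn1 (0.65 ± 0.21), which encode inhibitors of mTORC1 signalling. Sesn3 was at 101, 94.8 and 83.1 CPM in the controls and at 184, 176 and 191 CPM with eIF3m siRNA (edgeR adjusted p = 1.47e-08). The groups were far apart. Deptor, an inhibitor of mTOR (-0.44 ± 0.07), Akt1s1, the mTORC1 substrate PRAS40 (-0.28 ± 0.06), and Rptor, the raptor subunit (-0.33 ± 0.09), fell, as did Rheb (-0.19 ± 0.06) and Mtor (-0.20 ± 0.07). Sesn1 did not pass without control replicate 3 or with DESeq2, and Mtor passed in only 4 of 16 alternatives. With no scaling factors Rheb (-0.047), Akt1s1 (-0.13) and Rptor (-0.18) did not pass. Rheb also missed with DESeq2 and upper-quartile scaling, and Rptor with thinned libraries.

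Of 8 transcription factors of autophagy genes, 2 rose and 1 fell (25% and 12.5%), against 17.4% and 21.2% of all genes. Tfe3, which binds E-boxes of lysosomal and autophagy genes, rose from 78.1 ± 2.73 to 95.02 ± 1.81 CPM (0.29 ± 0.05 SE, edgeR adjusted p = 3.97e-04). Its relatives Tfeb (-0.08 ± 0.16) and Mitf (0.03 ± 0.16) did not pass. Foxo1 rose as well (0.75 ± 0.23 SE, adjusted p = 0.0176), from 6.04 ± 1.72 to 10.5 ± 2.04 CPM, a call lost without control replicate 1 (0.55), without eIF3m replicate 1 (0.62) and with thinned libraries (0.62). Hif1a, the gene that fell, was at -0.13 ± 0.05 SE (adjusted p = 0.0446), passed in only 6 of 16 alternatives and turned to 0.01 with no scaling factors. Its call was lost with DESeq2 and when any library but eIF3m replicate 3 was left out. Of 15 other formation and regulation genes, 0 rose and 4 fell by edgeR (0% and 26.7%, against 17.4% and 21.2% of all genes). The counts were 0 and 3 by DESeq2 and 0 and 4 by limma-voom. At an unadjusted edgeR p under 0.05, 0 were higher and 5 lower. These included Bcl2l1, which encodes the Beclin 1 partner Bcl-xL (-0.62 ± 0.06), the kinase Dapk3 (-0.44 ± 0.06) and Tmem41b, which acts with Vmp1 at the endoplasmic reticulum (-0.31 ± 0.07), whose call was lost with thinned libraries and with no scaling factors (-0.16). Bcl2l1 fell from 111 ± 2.36 to 73.0 ± 4.74 CPM.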

How the data were processed

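RNA sequencing counts of 6 rat libraries were compared, grouped and numbered by their labels. The authors deposited 1 whole-number count per gene symbol and library and did not normalise it. Per the submitters' processing notes, HISAT2 2.2.1, featureCounts, Trimmomatic 0.40, limma and DESeq2 were among the tools and rn6 was the build; how strand and multi-mapping reads were handled is not given in the sources used here. Per the labels' protocols, a SMARTER kit was used on 1.3 ug of total RNA, and the same field holds a text on dexamethasone and insulin feeding that may not concern these cells. Dates stood in place of 27 symbols per file, and these entries, 0.203% to 0.216% of the counts, were left out.

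The whole table was fitted in R 4.3.3 with edgeR 4.0.16 (TMM factors, filterByExpr at its settings of 10 counts and 15 in total, quasi-likelihood F-test with no covariate, two-sided, Benjamini-Hochberg adjustment over 12724 genes). Fold changes are eIF3m over control, SE is the log2 fold change divided by the root of F, and 95% intervals use the degrees of freedom of the fit. CPM is the count relative to the scaled library total; 3 counts, taken as the floor, were worth 0.285 to 1.32 CPM. The script was run on simulated data in which few genes changed, in random directions. That setting differs from these data and cannot check the choice of scaling. Alternatives were DESeq2 1.42.0, limma-voom (limma 3.58.1), other scalings and filters, robust dispersion, libraries thinned to the smallest, the 20 most abundant genes left out, a replicate block, and each library left out in turn.

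The members and lists were chosen with earlier results of these data known. Library values are given for Eif3m, for up to 4 called members of each role with the lowest p and for Ulk1, Becn1, Atg5, Atg7, Map1lc3b, Sqstm1, Bnip3 and Bnip3l, and names for up to 3 called genes of each pathway list; other genes named were chosen after their values were seen.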

Additional observations from a re-analysis of the deposited data

How the results depend on the processing

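Across 16 alternatives, Vmp1, Wdr45, Gabarap, Gabarapl2, Map1lc3b, Nbr1, Sqstm1 and Tecpr1 fell each time, and the fall of Eif3m stayed past the threshold. With upper-quartile scaling, 1 autophagy gene and 12 pathway genes rose, the median of the autophagy genes was -0.087, and Ulk2 (0.052), Becn1 (0.016), Pik3c3 (0.013), Uvrag (0.018), Atg2b (0.018), Atg12 (0.026), Atg16l2 (0.0043), Atg5 (0.025) and Tax1bp1 (0.045) changed sign without passing. With no scaling factors, 4163 of all genes rose and 1680 fell, 7 autophagy genes and 20 pathway genes rose, 15 pathway genes fell and the median was -0.0094. The sign then changed for Ulk2 (0.13), Ambra1 (0.0047), Becn1 (0.094), Pik3c3 (0.091), Uvrag (0.096), Atg2b (0.096), Atg12 (0.10), Atg16l2 (0.082), Atg5 (0.10), Bnip3 (0.0057), Hif1a (0.013), Ykt6 (4.4e-04) and Tax1bp1 (0.12), and of these Tax1bp1 passed. The share of calls that were higher was 45.1% of all genes called with TMM, 58.6% with upper-quartile scaling and 71.2% with none. With a stricter filter, 10 pathway genes rose, the median was -0.13, and Ulk2 (0.0080) and Tax1bp1 (0.0013) lay above 0. Libraries thinned to the total of eIF3m replicate 2 gave 1356 risen and 1774 fallen genes and 9 fallen autophagy genes, with Ulk2 (0.18), Ambra1 (0.018), Becn1 (0.019) and Uvrag (0.013) above 0. The members whose calls were lost there were Atg2a, Optn, Atg13, Map1lc3a, Atg9b, Rb1cc1 and Atg4a. Bnip3l lay below 0 with DESeq2 (-0.0026) and with no filter (-0.018). The cause of these shifts was not tested further.

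Leaving out 1 library at a time gave 13 to 16 fallen and 0 risen autophagy genes, 20 to 26 fallen and 4 to 9 risen pathway genes, 2336 to 2641 fallen and 1692 to 2113 risen genes of all, and medians of -0.16 to -0.13. Signs changed for 10 autophagy genes that had not passed, whose values ran from -0.0043 to 0.18 (Atg101), -0.16 to 0.059 (Atg12), -0.13 to 0.021 (Atg16l2), -0.010 to 0.073 (Atg3), -0.030 to 0.23 (Atg4c), -0.11 to 0.080 (Atg5), -0.56 to 0.040 (Atg7), -0.10 to 0.054 (Bnip3l), -0.014 to 0.091 (Ulk1) and -0.059 to 0.048 (Ulk2).

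The replicate numbers were checked as possible pairs. Deviations from the group means correlated across all tested genes at 0.03, -0.01 and 0.01 for equal numbers, none over 0.1, so no pairing was seen. With eIF3m replicate 2 shallow and eIF3m replicate 1 holding red cell markers, these values cannot exclude a pairing. With the replicate block 2123 genes rose and 2632 fell, and 0 autophagy genes rose and 16 fell, Gabarapl1 entering and Map1lc3a leaving; Bnip3l was at -0.022.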
